A study of Homo sapiens with 12 samples.

Results

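The transcripts of 10 oxygen sensing genes were followed in 12 RNA-seq libraries of a leukaemia cell line, its imatinib resistant derivative and, by their labels, both lines with lycorine. The genes were EPAS1, HIF1A, ARNT, EGLN1, EGLN2, EGLN3, VHL, VEGFA, ADM and CA9, taken by their symbol from the 19447 symbols of the count table, and all 10 were present in it. K562 is a chronic myeloid leukaemia line that carries the BCR-ABL fusion, the kinase that imatinib blocks. The 4 groups held 3 libraries each. They were K562 (untreated), K562+L (K562 with 6 µM lycorine), K562/IM and the K562/IM+L-labelled libraries. K562/IM is the derivative selected in rising imatinib, a line kept in medium with 5 µM imatinib. The K562/IM+L-labelled libraries are, by their label, that derivative with lycorine, at 6 µM in the study. Lycorine is a plant alkaloid. All groups share the K562 background, K562/IM is 1 selected population, and the time from the start of treatment to RNA extraction is not given for the sequenced cells. The K562/IM libraries are labelled as control, and whether imatinib was in the medium of the sequenced cells is not given.

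The set was chosen with results of these libraries known. EPAS1 was chosen from its difference between the K562/IM+L-labelled libraries and K562/IM, and the other 9 genes were chosen as its pathway. EPAS1 is therefore described without a p-value throughout, and no member is given a p-value in that comparison or where the effect of lycorine in one line was set against that in the other. The sample titles name the K562/IM+L group with another code than the study's own graphics do, so these libraries are called here by their label. Whether they are of the resistant line was not tested. ABCB1, a drug efflux pump, was at 23.0, 21.9 and 25.8 CPM (the count over the effective size of its library, set by the TMM method) in K562/IM and at 0.706, 0.490 and 1.06 CPM in the K562/IM+L-labelled libraries, against 1.68 to 1.86 CPM in K562 and 3.83 to 5.14 CPM in K562+L. The summed level of 9 erythroid markers, which K562 is known to express, was 6270 to 8690 CPM in K562, 4260 to 4890 CPM in K562+L, 2380 to 2620 CPM in K562/IM and 32000 to 45100 CPM in the K562/IM+L-labelled libraries, and none of the 9 was at 0 in any group. Most of each sum came from the globin genes HBG2, HBG1 and HBZ. They averaged 3327, 1773 and 760 CPM in K562 and 17030, 8534 and 11150 CPM in the labelled libraries. The sum thus mainly gives the globin level, and GATA1, for example, averaged 196 CPM in K562/IM and 250 CPM in the labelled libraries. The sum of 6 endothelial markers, the cell type that EPAS1 is named for, stayed between 1.69 and 3.06 CPM, while 6 lymphocyte markers summed to 23.9 to 25.7 CPM in K562/IM and to at most 3.50 CPM elsewhere. The 6 stromal and epithelial markers summed to 124 to 133 CPM in K562, 107 to 119 CPM in K562+L, 67.3 to 72.9 CPM in K562/IM and 85.5 to 106 CPM in the K562/IM+L-labelled libraries. Within that list the epithelial EPCAM was lowest in K562/IM (46.3 ± 2.96 CPM against 128 ± 4.78 CPM in K562 and 94.9 ± 10.2 CPM in the labelled libraries), while the collagen COL1A2 was at 17.1 ± 1.53 CPM in K562/IM and averaged at most 0.0294 CPM in the other groups. Total counts per library ran from 75093844 to 107344598.

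Cells measure oxygen through the stability of a transcription factor. The hypoxia inducible factors pair an alpha subunit, HIF-1 alpha (HIF1A) or HIF-2 alpha (EPAS1), with the beta subunit ARNT. When oxygen is present, the prolyl hydroxylases EGLN1, EGLN2 and EGLN3 mark the alpha subunit, and the VHL protein, the recognition part of a ubiquitin ligase, directs it to the proteasome. When oxygen is scarce, the alpha subunit escapes this mark, enters the nucleus with ARNT and switches on genes such as VEGFA, ADM, CA9 and EGLN3, the last of which feeds back on the factor itself. For red blood cells the pathway is known through its control of erythropoietin and of iron handling. Most of this regulation acts on the protein, which RNA-seq does not measure.

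The hypoxia inducible factors bind a short core, ACGTG or GCGTG, and the promoters below show where these letters stand in the members that the results turn on. RefSeq promoters were found for 8 of the 10 members, in 10 windows of 250 bases before the gene start, and VHL and VEGFA were not matched. The core, read on both strands, was present in 6 of these 8 members, EPAS1, HIF1A, EGLN1, EGLN2, ADM and CA9, and was not found in the windows of ARNT and EGLN3. HIF1A and EGLN2 each had another window, from chr14:61697462 and chr19:40799272, that did not hold it. Of all 35116 windows of this length, 43.2% held the core and 18.5% held ACGTG, so that a match is common. These shares are per window, while the count above is per member, and a member with more windows has more chances of a match. The letters are a description and not a binding site. The sequences run 5′ to 3′ on the strand of the gene (build GRCh38.p14), with the core in capitals. They are shown for both alpha subunit genes, for EGLN3 as a member without the core, and for ADM and CA9 as known targets. The windows lie at chr2:46297157-46297406 (plus strand) for EPAS1, chr14:61695263-61695512 (plus strand) for HIF1A, chr14:33951075-33951324 (minus strand) for EGLN3, chr11:10304823-10305072 (plus strand) for ADM and chr9:35673678-35673927 (plus strand) for CA9.
EPAS1: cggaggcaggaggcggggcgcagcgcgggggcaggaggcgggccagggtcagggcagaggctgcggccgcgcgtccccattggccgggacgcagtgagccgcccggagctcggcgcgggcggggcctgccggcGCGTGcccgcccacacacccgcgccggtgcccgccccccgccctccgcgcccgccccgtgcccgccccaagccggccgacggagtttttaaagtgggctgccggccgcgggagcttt
HIF1A: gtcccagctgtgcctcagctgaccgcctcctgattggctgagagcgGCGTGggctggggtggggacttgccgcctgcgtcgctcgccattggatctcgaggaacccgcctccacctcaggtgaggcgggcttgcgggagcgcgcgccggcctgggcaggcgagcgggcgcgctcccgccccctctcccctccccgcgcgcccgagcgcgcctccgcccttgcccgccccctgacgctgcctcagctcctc
EGLN3: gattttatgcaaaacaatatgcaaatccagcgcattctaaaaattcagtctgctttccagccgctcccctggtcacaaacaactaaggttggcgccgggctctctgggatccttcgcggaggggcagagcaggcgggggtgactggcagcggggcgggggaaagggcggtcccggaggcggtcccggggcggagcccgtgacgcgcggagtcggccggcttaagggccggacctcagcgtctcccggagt
ADM: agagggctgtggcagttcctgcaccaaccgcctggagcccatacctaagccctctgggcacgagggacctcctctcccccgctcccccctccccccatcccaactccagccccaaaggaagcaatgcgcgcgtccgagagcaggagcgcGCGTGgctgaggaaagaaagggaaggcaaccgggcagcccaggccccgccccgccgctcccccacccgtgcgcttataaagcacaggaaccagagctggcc
CA9: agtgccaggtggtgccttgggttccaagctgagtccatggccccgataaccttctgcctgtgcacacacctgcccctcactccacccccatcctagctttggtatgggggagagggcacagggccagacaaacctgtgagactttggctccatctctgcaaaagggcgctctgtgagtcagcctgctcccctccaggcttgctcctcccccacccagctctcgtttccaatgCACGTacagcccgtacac
The start is that of the RefSeq transcript. For HIF1A it is also the GENCODE gene start given here, while the windows of EPAS1, EGLN3, ADM and CA9 lie wholly or partly within the GENCODE spans. The core began 117 bases before the RefSeq start of EPAS1, 204 bases before that of HIF1A, 101 bases before that of ADM and 18 bases before that of CA9, where it is read on the opposite strand as CACGT. In EGLN1 it stood 13 bases before the start. In EGLN2 a CACGT and an ACGTG overlapped, 49 and 48 bases before the start.

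EPAS1, which encodes HIF-2 alpha, spans chr2:46293667-46386703 on the plus strand (GENCODE 29, GRCh38). It was at 38.2, 34.2 and 36.0 CPM in K562 and at 138, 129 and 141 CPM in K562+L. In K562/IM it was at 52.7, 52.9 and 59.2 CPM, and in the K562/IM+L-labelled libraries at 19.8, 21.5 and 26.5 CPM. Every K562+L library lay above every other library, and every K562/IM+L-labelled library lay below every other one. The order was K562+L (136 ± 6.37 CPM, SD, n = 3), K562/IM (54.9 ± 3.69 CPM), K562 (36.1 ± 1.97 CPM) and the K562/IM+L-labelled libraries (22.6 ± 3.46 CPM), and no neighbours in this order overlapped. The steps between neighbouring means were 2.48-fold, 1.52-fold and 1.60-fold, and the extremes were 6.02-fold apart. In bulk RNA, fewer cells that carry a transcript and less of it in each cell cannot be told apart. The labels do not say that replicates came from separate cultures, so an SD or a p-value measures only the spread between these libraries, which may be technical.

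**Figure D1:**
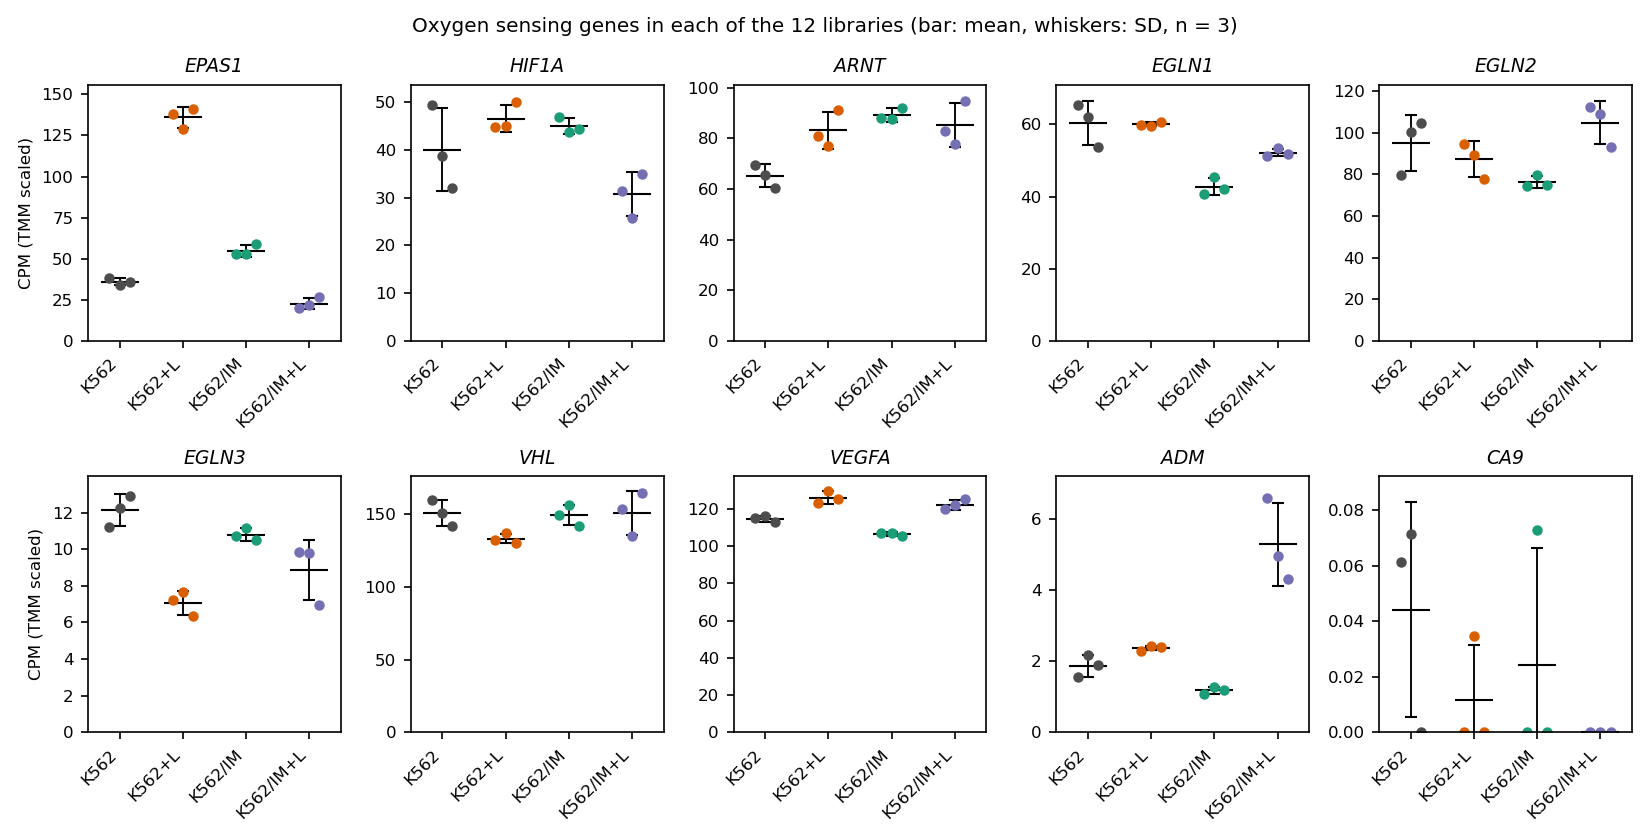
Level of each of the 10 genes in each library, in CPM with TMM scaling (vertical axis, starting at 0, one scale per gene), by group as labelled on the horizontal axis. Points are libraries, the wide bar is the mean and the whiskers are the SD of 3 libraries, cut off at 0 for CA9. EPAS1 stood at 129 to 141 CPM in K562+L and at 19.8 to 26.5 CPM in the K562/IM+L-labelled libraries, whereas VHL stayed between 130.5 and 165 CPM in all 12.

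HIF1A, which encodes HIF-1 alpha, spans chr14:61695513-61748259 on the plus strand. It overlaps the antisense transcripts HIF1A-AS1 and HIF1A-AS2, whose reads cannot be told apart from its own here, since strand is not stated for the libraries. HIF1A was at 49.5, 38.7 and 32.1 CPM in K562, the widest spread relative to its mean of the 9 tested members in that group. It was at 44.8, 45.1 and 50.0 CPM in K562+L, at 47.0, 43.8 and 44.5 CPM in K562/IM and at 31.5, 25.8 and 35.0 CPM in the K562/IM+L-labelled libraries. The group means were 40.1 ± 8.78, 46.6 ± 2.92, 45.1 ± 1.67 and 30.8 ± 4.61 CPM (SD, n = 3). All neighbours in the order of the means overlapped, and the K562/IM+L-labelled libraries lay below every K562+L and K562/IM library but not below every K562 library.

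Levels of different genes were compared only per length, as CPM per kb of the longest coding transcript. On that scale EPAS1 ran from 4.37 CPM per kb in the K562/IM+L-labelled libraries to 26.3 CPM per kb in K562+L, and HIF1A from 7.78 to 11.8 CPM per kb in the same groups. The ratio of EPAS1 to HIF1A per kb was 0.591, 0.677 and 0.858 in the K562 libraries and 2.36, 2.19 and 2.16 in the K562+L libraries. It was 0.860, 0.924 and 1.02 in K562/IM and 0.481, 0.638 and 0.579 in the K562/IM+L-labelled libraries. HIF1A was thus the more abundant alpha subunit transcript per kb in every library outside K562+L apart from 1 of K562/IM, and EPAS1 in every K562+L library. With merged exons as the length, the mean ratio was 2.06 in K562+L in place of 2.24, and 0.522 to 0.861 in the other groups, and the K562/IM library at 1.02 came to 0.939.

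ARNT, the shared beta subunit, lies at chr1:150809705-150876768 on the minus strand. It was at 69.7, 65.6 and 60.5 CPM in K562, below every library of the other groups. K562+L had 81.0, 77.1 and 91.3 CPM, K562/IM had 88.1, 87.5 and 92.2 CPM, and the K562/IM+L-labelled libraries had 82.8, 77.9 and 94.8 CPM. The last 3 groups overlapped one another, with means of 83.1 ± 7.37, 89.2 ± 2.57 and 85.2 ± 8.69 CPM (SD, n = 3) against 65.3 ± 4.57 CPM in K562. Per kb, ARNT ran from 13.4 to 18.3 CPM and exceeded HIF1A in every group mean and EPAS1 in every group mean but that of K562+L.

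**Figure D2:**
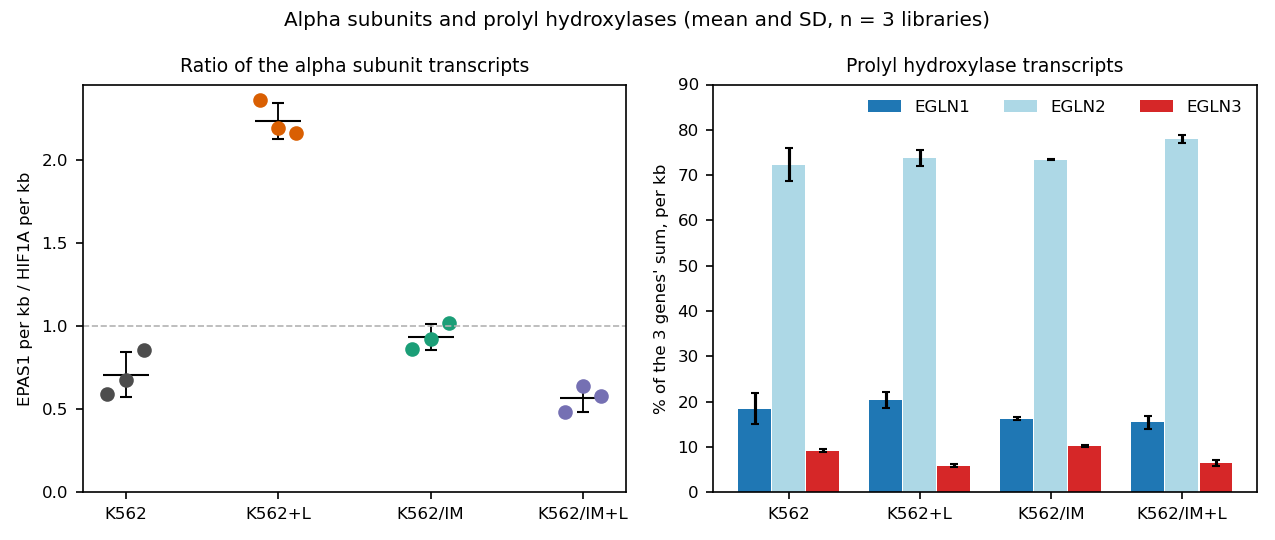
Left, the ratio of EPAS1 to HIF1A, both in CPM per kb of the longest coding transcript, in each library (points) with the mean and SD of 3 libraries per group, where the dashed line marks equal levels. Right, the percent of the summed CPM per kb of EGLN1, EGLN2 and EGLN3 that each gene held (bars start at 0, whiskers are the SD, n = 3 libraries). The ratio was 2.16 to 2.36 in K562+L and 0.481 to 1.02 elsewhere, and EGLN2 held 72.3% to 78.0% of the hydroxylase sum in the group means.

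The prolyl hydroxylases differed from one another in both level and pattern. EGLN2 (chr19:40798996-40808433, plus strand) held 72.3% to 78.0% of the 3 genes' sum per kb in the group means, EGLN1 (chr1:231363751-231425044, minus strand) 15.5% to 20.3% and EGLN3 (chr14:33924231-34462774, minus strand) 5.93% to 10.3%. The share of EGLN3 was 9.18% ± 0.330 in K562, 5.93% ± 0.295 in K562+L, 10.3% ± 0.184 in K562/IM and 6.49% ± 0.683 in the K562/IM+L-labelled libraries (SD, n = 3). EGLN2 overlaps the readthrough gene RAB4B-EGLN2, and the long annotated span of EGLN3 overlaps SPTSSA, so that their counts may hold reads of these neighbours.

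EGLN1 encodes the main oxygen sensing hydroxylase of most cells. It was at 65.4, 62.0 and 53.8 CPM in K562 and at 59.9, 59.5 and 60.8 CPM in K562+L, 2 groups that overlapped. It was lower in K562/IM, at 40.8, 45.3 and 42.1 CPM, and at 51.3, 53.4 and 51.9 CPM in the K562/IM+L-labelled libraries. K562/IM did not overlap any other group, and neither did the K562/IM+L-labelled libraries.

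EGLN2 was at 79.8, 101 and 105 CPM in K562, at 94.5, 89.4 and 77.7 CPM in K562+L, at 74.6, 79.8 and 74.8 CPM in K562/IM and at 113, 109 and 93.0 CPM in the K562/IM+L-labelled libraries. Its only groups without overlap were K562/IM and the K562/IM+L-labelled libraries. EGLN3, the hydroxylase that is itself a known target of the factors, was at 11.2, 12.3 and 12.9 CPM in K562 and at 7.24, 7.64 and 6.36 CPM in K562+L. It was at 10.7, 11.2 and 10.5 CPM in K562/IM and at 9.84, 9.79 and 6.94 CPM in the K562/IM+L-labelled libraries, 1 of which lay among the K562+L libraries. The mean of EGLN3 was 7.08 CPM in K562+L, where EPAS1 was highest, and 8.86 CPM in the K562/IM+L-labelled libraries, where EPAS1 was lowest. Both lay below the means of K562 (12.1 CPM) and K562/IM (10.8 CPM).

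VHL (chr3:10141008-10152220, plus strand) had the highest level per kb of the 10 genes in the group means, 35.7 to 40.4 CPM per kb, with VEGFA at the same rounded level in K562+L. It was at 160, 151 and 142 CPM in K562, at 133, 137 and 130.5 CPM in K562+L, at 149.7, 156 and 142 CPM in K562/IM and at 154, 135 and 165 CPM in the K562/IM+L-labelled libraries. Only K562+L lay apart, below every K562 and K562/IM library, and it overlapped the K562/IM+L-labelled libraries.

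The 3 target genes spanned very different levels. VEGFA, the main growth factor of blood vessels (chr6:43770184-43786487, plus strand), ran from 30.1 to 35.7 CPM per kb in the group means, ADM, the vasodilator peptide adrenomedullin (chr11:10304680-10307397, plus strand), from 0.624 to 2.80 CPM per kb, and CA9, a carbonic anhydrase of the cell surface (chr9:35673856-35681159, plus strand), was at most 0.0274 CPM per kb. VEGFA was at 115, 116 and 113 CPM in K562, 123, 129.9 and 125 CPM in K562+L, 107, 107 and 105 CPM in K562/IM and 119.9, 122 and 125 CPM in the K562/IM+L-labelled libraries. Both groups with lycorine in their label lay above both groups without it. The 2 groups with lycorine overlapped, while K562 and K562/IM did not.

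ADM was at 1.56, 2.18 and 1.88 CPM in K562, 2.30, 2.41 and 2.38 CPM in K562+L, 1.07, 1.28 and 1.19 CPM in K562/IM and 6.58, 4.96 and 4.32 CPM in the K562/IM+L-labelled libraries. No groups of ADM overlapped, and its order differed from that of EPAS1, with the K562/IM+L-labelled libraries highest and K562/IM lowest. CA9 had 5, 6 and 0 counts in K562, 0, 3 and 0 in K562+L, 0, 7 and 0 in K562/IM and 0 in each K562/IM+L-labelled library. A count of 0 allows a level of up to 0.0279 to 0.0420 CPM (3 counts of the library, counting error only), so CA9 was at or near the limit of detection, and no group difference was detectable at this depth. If a fragment is worth about 4 counts, which the low counts leave possible, a count of 0 allows a higher level than this. CA9 did not pass the filter on low counts, and 9 of the 10 members were tested. Its span overlaps ARHGEF39 on the opposite strand.

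Lycorine in K562 came with a higher level of EPAS1 and ARNT and a lower level of EGLN3. EPAS1 is described only, and of the other tested members ARNT and EGLN3 alone passed the test. EPAS1 differed by +1.91 ± 0.09 (log2 fold change ± SE, K562+L against K562, 3 against 3 libraries), which was rank 111 from the highest of 12927 genes. ARNT rose by +0.35 ± 0.10 (edgeR's quasi-likelihood test, Benjamini-Hochberg adjusted p = 0.0279), and EGLN3 fell by 0.78 on the log2 scale (SE 0.12, adjusted p = 0.00285). With the threshold at an adjusted p of 0.05, the higher members were 2 of the 9 tested and the lower 1, beside 18.2% of all genes higher and 19.0% lower, so that these shares are near the background. Of these 2 higher members, 1 is EPAS1, which was chosen with results of these libraries known. The call of ARNT was lost when K562 replicate 2 (adjusted p = 0.0910) or 3 (0.0715), or K562+L replicate 1 (0.0688) or 3 (0.104), was left out, and over all alternatives its adjusted p ran from 0.00814 to 0.104.

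The interval of the difference was -0.14 to 0.57 for HIF1A (adjusted p = 0.295), -0.23 to 0.21 for EGLN1 (0.954), -0.42 to 0.17 for EGLN2 (0.470), -0.37 to 0.01 for VHL (0.121), -0.04 to 0.31 for VEGFA (0.195) and -0.11 to 0.79 for ADM (0.209), all 95% intervals of the log2 fold change from the same edgeR fit. For HIF1A, EGLN2, VHL and ADM the interval included a change as large as that of ARNT in one direction. The value of HIF1A rested on 1 library: without K562 replicate 1, the K562 library with the highest HIF1A, the difference was +0.39 with an adjusted p of 0.0248.

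**Figure D3:**
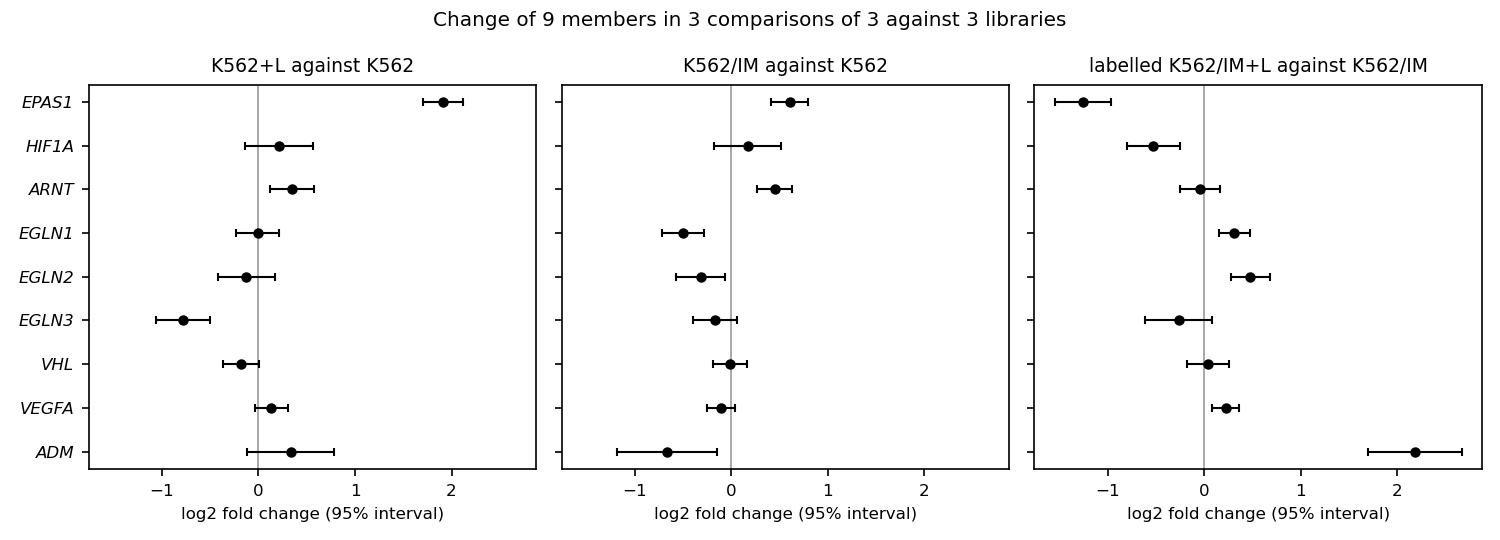
Log2 fold change of the 9 tested genes (points, horizontal axis) with its 95% interval from the edgeR fit (bars) in each of 3 comparisons of 3 against 3 libraries, where 0 means no difference. EPAS1 stood at +1.91 in K562+L against K562 and at -1.26 in the K562/IM+L-labelled libraries against K562/IM, and ADM at +2.18 in the latter.

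In the resistant line ARNT was higher than in K562, and EGLN1, EGLN2 and ADM were lower. EPAS1 was higher in K562/IM than in K562 by +0.60 ± 0.08 (log2 fold change ± SE). ARNT rose by +0.45 ± 0.08 (edgeR, adjusted p = 0.00172) and EGLN1 fell by 0.50 on the log2 scale (SE 0.09, adjusted p = 0.00278), calls that held under all 14 alternatives. EGLN2 fell by 0.32 (SE 0.11, adjusted p = 0.0389) and ADM by 0.67 (SE 0.22, adjusted p = 0.0340) on the same scale. In all, 2 of the 9 members were higher and 3 lower, beside 30.1% of all 13406 genes higher and 27.1% lower, which again is near the background. EPAS1, chosen with results of these libraries known, is 1 of the 2 higher members.

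The calls of EGLN2 and ADM in the resistant line were not firm. EGLN2 lost its call with upper-quartile scaling (adjusted p = 0.0711), without K562 replicate 2 (edgeR adjusted p = 0.128) or 3 (0.0853), and without K562/IM replicate 1 (0.120), 2 (0.0732) or 3 (0.116). ADM lost its call without K562 replicate 2 (0.105) or 3 (0.0620), and without K562/IM replicate 1 (0.120), 2 (0.0641) or 3 (0.0856). HIF1A (+0.17, adjusted p = 0.359), EGLN3 (-0.17, 0.170), VHL (-0.01, 0.894) and VEGFA (-0.11, 0.168) did not pass the test, and their 95% intervals were -0.17 to 0.51, -0.39 to 0.06, -0.19 to 0.16 and -0.25 to 0.04. Without K562 replicate 1, HIF1A was called at +0.32 (adjusted p = 0.0161) and EGLN3 at -0.26 (adjusted p = 0.0443). This comparison shares the K562 libraries with the one above, so the values of both rest in part on the same samples. It also shares the K562/IM libraries with the comparison on which EPAS1 was chosen, so its EPAS1 value is not independent of that choice. The part of the stromal, epithelial and lymphocyte markers, which differed between these lines, in the values of the members was not tested.

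Against K562/IM, the K562/IM+L-labelled libraries lay lower without overlap for EPAS1, HIF1A and EGLN3. They lay higher without overlap for ADM and, by less, for EGLN1, EGLN2 and VEGFA, while VHL and ARNT overlapped. EPAS1, whose choice rested on this comparison, differed by -1.26 ± 0.12 (log2 fold change ± SE), HIF1A by -0.53 ± 0.12 and ADM by +2.18 ± 0.21, the last at rank 801 from the highest of 13727 genes. The differences of EGLN2, EGLN1 and VEGFA were +0.48 ± 0.08, +0.31 ± 0.07 and +0.22 ± 0.06, while those of EGLN3, VHL and ARNT were -0.26 ± 0.15, +0.04 ± 0.09 and -0.04 ± 0.09. With the same threshold 4 of the 9 members were higher and 2 lower, beside 33.2% of all genes higher and 33.6% lower, and nothing is read from this count, since the contrast was used in the choice of members. That count is not firm either, since VEGFA kept its value of +0.22 without K562/IM replicate 1 or 3 but left the count.

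All 9 erythroid markers were also called higher in the K562/IM+L-labelled libraries, with a median log2 fold change of +2.79. Their part in the values of EPAS1, HIF1A and ADM was not tested.

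The lycorine effect as labelled in K562/IM, minus that in K562, was -3.19 ± 0.15 for EPAS1 (log2 ± SE, a fit over all 12 libraries). EPAS1 was the only member whose libraries moved in opposite directions without overlap in both lines as labelled. Its move from K562/IM to the K562/IM+L-labelled libraries is the difference on which it was chosen, so this is a description only. The same difference was -0.77 ± 0.21 for HIF1A, -0.42 ± 0.13 for ARNT, +1.83 ± 0.28 for ADM, +0.58 ± 0.16 for EGLN2, +0.49 ± 0.19 for EGLN3 and +0.30 ± 0.11 for EGLN1. It was +0.19 ± 0.11 for VHL and +0.07 ± 0.08 for VEGFA. Past the threshold were 4 members on the higher side and 3 on the lower, beside 29.9% and 31.7% of all 13995 genes, a count given as a description only.

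The remaining pathway genes were taken from 4 lists of 64 genes in all, none of which are members. Genes past the threshold lay in both directions in each comparison. With lycorine in K562, 8 of the 51 tested were higher and 17 lower, beside 18.2% and 19.0% of all genes, with a median log2 fold change of -0.23 beside a median within 0.01 of 0 over all genes. In K562/IM against K562, 16 of 53 were higher and 16 lower, beside 30.1% and 27.1% of all genes (median -0.10, all genes 0.04), and in the K562/IM+L-labelled libraries against K562/IM, 21 of 53 were higher and 15 lower, beside 33.2% and 33.6% (median 0.13, all genes -0.01). The genes named from these lists are those with the largest called changes, so their sizes stand at the upper end of each list, and the lists, like the members, were drawn up with results of these libraries known.

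**Figure D4:**
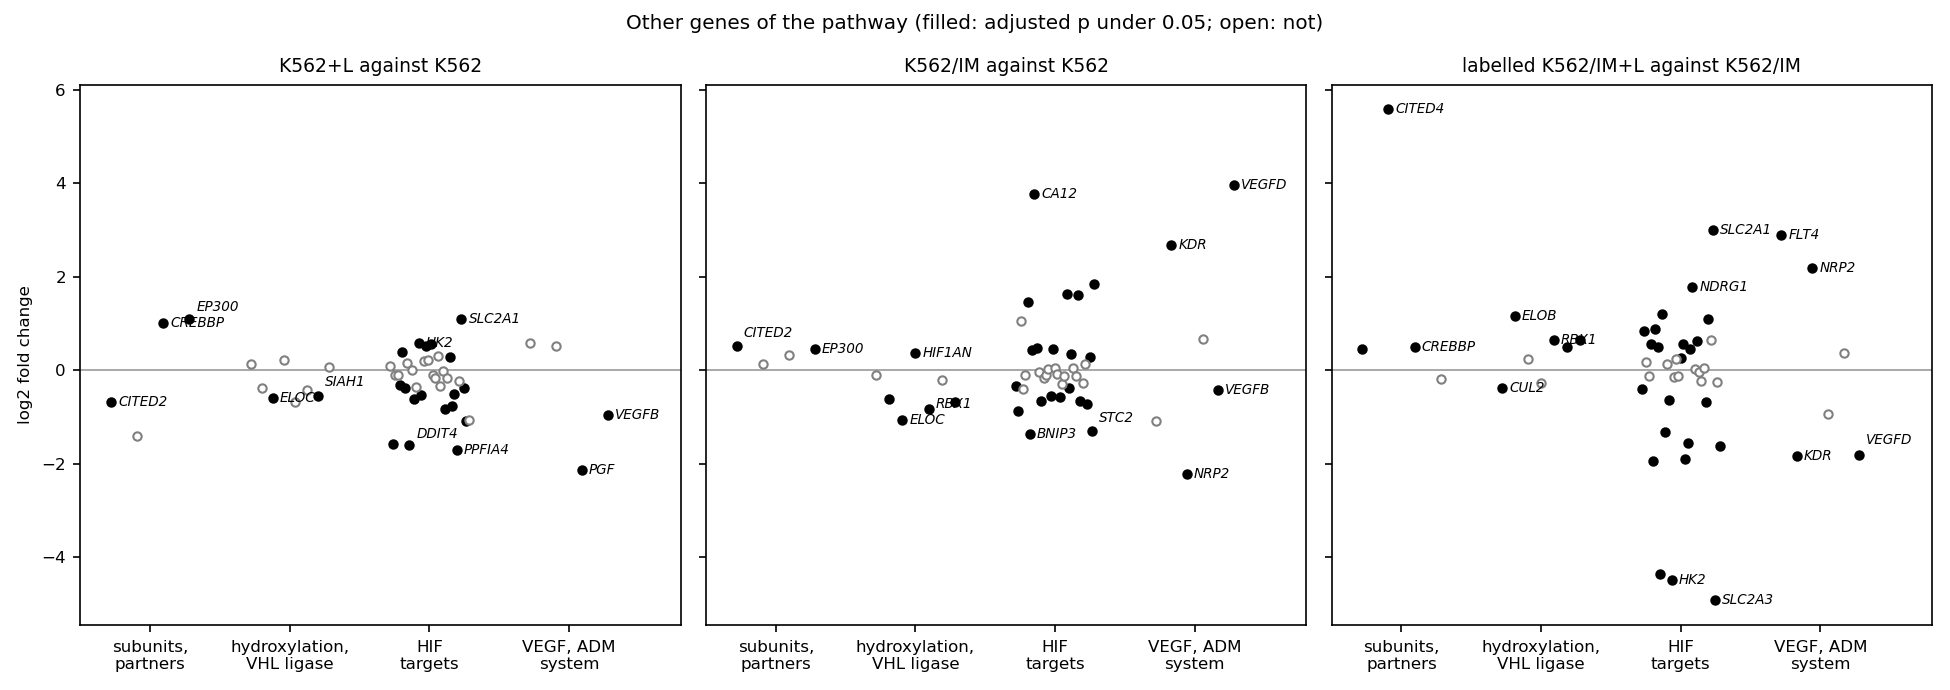
Log2 fold change (vertical axis) of tested genes of the 4 other pathway lists (horizontal axis) in 3 comparisons of 3 against 3 libraries, with filled points for genes at an adjusted p under 0.05 and open points for the rest. Named are at most 2 genes per list and direction. Called genes lay on both sides of 0 in each comparison, from SLC2A3 at -4.93 to CITED4 at +5.59 in the K562/IM+L-labelled libraries against K562/IM.

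Among the partners of the factors, the coactivators EP300 and CREBBP, which bind the alpha subunits and acetylate histones, rose with lycorine in K562. EP300 went from 66.1 ± 15.8 to 141 ± 21.4 CPM (+1.09 ± 0.18 log2, edgeR adjusted p = 0.00376) and CREBBP from 41.7 ± 8.32 to 84.5 ± 11.1 CPM (+1.02 ± 0.17, adjusted p = 0.00332). CITED2, which competes with the factors for these coactivators, fell there from 98.7 ± 4.55 to 61.3 ± 1.63 CPM (by 0.69 on the log2 scale, adjusted p = 0.000983) and was higher in K562/IM, at 141 ± 14.6 CPM (+0.51 ± 0.09, adjusted p = 0.00222). CITED4, of the same family, was at 0.466 ± 0.158 CPM in K562/IM and at 22.4 ± 5.45 CPM in the K562/IM+L-labelled libraries (+5.59 ± 0.31, adjusted p = 5.08e-06). CREBBP rose in that comparison too (+0.51 ± 0.13, adjusted p = 0.0108). EP300 in K562/IM (+0.45 ± 0.16, adjusted p = 0.0413) lost its call without any 1 of 5 libraries, all but K562 replicate 1, with adjusted p between 0.0624 and 0.134. ARNT2 and HIF3A were too low to be tested.

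In the hydroxylation and VHL ligase list, 2 of 8 genes were lower in K562+L, 1 of 7 higher and 4 lower in K562/IM, and 4 of 7 higher and 1 lower in the K562/IM+L-labelled libraries, to be read against 18.2% higher and 19.0% lower, 30.1% and 27.1%, and 33.2% and 33.6% of all genes in these comparisons. ELOC, the elongin C that links VHL to the ligase, was at 108 ± 21.9 CPM in K562, 71.0 ± 5.15 CPM in K562+L and 51.7 ± 3.08 CPM in K562/IM. It fell by 0.60 with lycorine in K562 (log2, edgeR adjusted p = 0.0145, lost without K562+L replicate 1 at 0.0649) and by 1.06 in K562/IM (adjusted p = 0.000489). RBX1, the ring subunit, fell by 0.83 in K562/IM (adjusted p = 0.00188) and rose in the K562/IM+L-labelled libraries by +0.65 ± 0.13 (adjusted p = 0.00356), as did ELOB, elongin B, by +1.16 ± 0.16 (adjusted p = 0.000458). CUL2, the scaffold of the same ligase, fell there by 0.37 (adjusted p = 0.00109). SIAH1, a ligase for hydroxylases, fell by 0.54 in K562+L (adjusted p = 0.0143), a call lost without K562 replicate 2 (0.0514) or without K562+L replicate 1 (0.0599) or 3 (0.0542). HIF1AN, which hydroxylates an asparagine of the alpha subunits, rose in K562/IM by +0.38 ± 0.10 (adjusted p = 0.0109).

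The 37 HIF target genes were split within each comparison, with 6 higher and 12 lower of 35 in K562+L, 11 higher and 10 lower of 36 in K562/IM, and 12 higher and 12 lower of 36 in the K562/IM+L-labelled libraries. Against the shares of all genes just given, the counts in both comparisons with K562/IM are near the background. The glucose transporter SLC2A1 was at 129 ± 5.96 CPM in K562 and 277 ± 16.9 CPM in K562+L (+1.10 ± 0.08 log2, edgeR adjusted p = 0.000182), and at 78.5 ± 1.03 CPM in K562/IM and 621 ± 28.8 CPM in the K562/IM+L-labelled libraries (+3.01 ± 0.07, adjusted p = 1.77e-07). SLC2A3, the other glucose transporter of the list, and the hexokinase HK2 went the other way in the latter comparison, from 252 ± 3.43 to 8.14 ± 0.850 CPM (-4.93 ± 0.10, adjusted p = 1.3e-07) and from 86.3 ± 2.86 to 3.75 ± 0.569 CPM (-4.50 ± 0.13, adjusted p = 3.37e-07). HK2 rose with lycorine in K562 by +0.59 ± 0.11 (adjusted p = 0.00492).

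Among the other targets, DDIT4, an inhibitor of mTORC1, fell from 34.9 ± 2.81 to 11.6 ± 1.21 CPM in K562+L (by 1.59 log2, edgeR adjusted p = 0.000141), and PPFIA4 by 1.70 (adjusted p = 0.00749) at a level of 1.82 ± 0.498 CPM in K562. In K562/IM, BNIP3, a mitophagy receptor, fell from 91.3 ± 3.16 to 35.6 ± 2.74 CPM (by 1.36, adjusted p = 9.98e-06) and STC2, a secreted glycoprotein, by 1.30 (adjusted p = 2.13e-05). STC2 fell in K562+L as well, by 1.08 (adjusted p = 0.000462). CA12, a relative of CA9, reached 0.466 ± 0.127 CPM in K562/IM against 0.0330 ± 0.0287 CPM in K562, a level so low that its fitted +3.77 ± 0.76 (adjusted p = 0.00382) depends on the prior count. NDRG1, a stress response gene, was at 16.3 ± 1.05 CPM in K562/IM and 55.3 ± 1.36 CPM in the K562/IM+L-labelled libraries (+1.78 ± 0.08, adjusted p = 1.87e-06), and it was also higher in K562/IM than in K562, where it was at 5.26 ± 0.574 CPM (+1.63 ± 0.12, adjusted p = 2.4e-05).

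In the VEGF and adrenomedullin system, 4 to 6 of the 13 genes passed the filter, and the receptor genes of adrenomedullin, CALCRL, RAMP1, RAMP2 and RAMP3, were not among them. VEGFB fell by 0.95 in K562+L, from 49.5 ± 10.2 to 25.7 ± 2.98 CPM (edgeR adjusted p = 0.00394), and by 0.41 in K562/IM (adjusted p = 0.0387), a call lost without any 1 of 5 libraries, all but K562 replicate 1 (0.0833 to 0.110). The receptors were low. FLT4 was at 0.522 ± 0.317 CPM in K562/IM and 3.84 ± 0.281 CPM in the K562/IM+L-labelled libraries (+2.90 ± 0.40, adjusted p = 0.000483). NRP2 was at 0.807 ± 0.441 CPM in K562, 0.171 ± 0.0376 CPM in K562/IM and 0.781 ± 0.323 CPM in the K562/IM+L-labelled libraries, a fall of 2.22 (adjusted p = 0.00826) and a rise of 2.19 (adjusted p = 0.00382) on the log2 scale. VEGFD, at 0.539 ± 0.0452 CPM in K562/IM against 0.0343 ± 0.0594 CPM in K562, was called there (adjusted p = 0.0101). It fell in the K562/IM+L-labelled libraries to 0.149 ± 0.0984 CPM (adjusted p = 0.0212), a call lost without K562/IM replicate 1 (0.0632), 2 (0.0525) or 3 (0.0670). PGF, at 0.317 ± 0.112 CPM in K562 and 0.0704 ± 0.0220 CPM in K562+L, was called lower (adjusted p = 0.0229), a call lost without any 1 of the 6 libraries (0.0504 to 0.0831). KDR, the main VEGFA receptor, was at 0.244 ± 0.0772 CPM in K562/IM, 0.0367 ± 0.0358 CPM in K562 and 0.0672 ± 0.0267 CPM in the K562/IM+L-labelled libraries. Its calls, adjusted p = 0.0272 against K562 and 0.0250 against the labelled libraries, were lost without K562 replicate 3 or any K562/IM library in the former (0.0637 to 0.112) and without replicate 1 or 2 of K562/IM or replicate 1 or 3 of the labelled group in the latter (0.0562 to 0.109).

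The genes whose pattern over the 12 libraries was most like that of EPAS1 were DUSP3, LIMK2, PANX1, ELF4 and OR2AT4, with a Pearson r of log2(CPM + 1) of 0.992, 0.990, 0.985, 0.984 and 0.979 among 11665 genes with a mean of at least 1 CPM. DUSP3, for example, averaged 55.7, 84.7, 64.9 and 49.8 CPM in K562, K562+L, K562/IM and the K562/IM+L-labelled libraries. Those most like HIF1A were ZNF654 (0.985), FOXN2 (0.980), NUFIP2 (0.980), SP4 (0.979) and SGO2 (0.975), none shared with EPAS1. EPAS1 and HIF1A had an r of 0.740 with each other, and EGLN2 had an r of -0.851 with HIF1A and of -0.526 with EPAS1. ADM had -0.469 and VEGFA 0.215 with EPAS1. The 12 libraries form 4 groups, so that these values describe the order of 4 group means more than 12 independent points.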

How the data were processed

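Messenger RNA was sequenced by the authors in 12 libraries, 3 in each of 4 groups, set by cell line and treatment as labelled. The authors deposited read counts per gene symbol, not normalized. The submitters' processing notes name FastQC, STAR, StringTie, DESeq2 and the build hg38, and the annotation and strand setting are not given in the sources used here. Of counts from 1 to 25, 67.9% were a multiple of 4 or 1 above, a rule that whole numbers in this range meet and miss about equally often. A fragment may thus be worth about 4 counts, and counting noise may exceed what the totals give. The labels state no batch. Replicate libraries differed from one another by more than counting noise (chi-square per degree of freedom 31.4 to 187), so none was counted as a duplicate.

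The 6 libraries of each comparison were filtered (filterByExpr, minimum count 10), scaled by TMM and fitted with edgeR 4.0.16 (quasi-likelihood test, R 4.3.3), with Benjamini-Hochberg adjustment over all genes tested and a threshold of 0.05. The difference between lycorine effects was an interaction over 12 libraries. CPM used TMM over 12 libraries. Lengths and positions came from GENCODE 29, matched for 19029 symbols, and promoters from RefSeq (GRCh38.p14). The steps were tested on simulated counts. Alternatives were RLE and upper-quartile scaling, other filters, DESeq2 1.42.0, counts divided by 4, a replicate block, all 12 libraries in one fit, and each library left out.

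The members and gene lists were chosen with earlier results of these data known, and the lists come from general knowledge. Named are all members, in each pairwise comparison the 2 called genes with the largest change per direction of each of the 4 pathway lists, and the 5 genes most correlated with EPAS1 and with HIF1A. A gene that the rule names is not reported here.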

Additional observations from a re-analysis of the deposited data

Results flagged for a closer look

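The effect of lycorine in K562/IM as labelled, set against that in K562, picked out 7 of the 9 tested members by the interaction term. This contrast holds the values on which the members were chosen, and 29.9% of all genes were called higher and 31.7% lower in it, so the values are a description and support nothing. The difference was -3.19 for EPAS1 (log2, SE 0.147), -0.767 for HIF1A (SE 0.206) and -0.417 for ARNT (SE 0.129). It was 1.83 for ADM (SE 0.278), 0.580 for EGLN2 (SE 0.161), 0.491 for EGLN3 (SE 0.194) and 0.296 for EGLN1 (SE 0.110). All 7 rest on the 3 K562/IM+L-labelled libraries, in which the erythroid markers summed to 32000 to 45100 CPM and ABCB1 was at 0.490 to 1.06 CPM, and the part of these in the differences was not tested. EGLN1 and EGLN3 were no longer picked out under 10 of 19 alternatives each, and ARNT under 1.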

How the results depend on the processing

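No called result reversed its direction under any alternative run, and 504 of the 549 results for single members under the alternatives kept their call or its absence. These results include EPAS1 and the contrasts that hold the values used to choose the members. The count therefore describes the processing and supports no member. Genes called in K562+L against K562 fell from 4821 to 3126 with the replicate block and ran from 2871 to 5823 with 1 library left out. Members called higher there were 2, 1 with the replicate block and 1 to 3 with 1 library left out. The lower count came from ARNT, and the higher from HIF1A without K562 replicate 1. Members called lower in K562/IM against K562 were 3, and 1 to 4 with 1 library left out. Members called higher in the difference between the lycorine effects were 4, 2 without a filter on low counts, 6 with upper-quartile scaling and 2 to 4 with 1 library left out. Upper-quartile scaling moved the median of all genes in that difference from -0.02 to 0.11, and both members it added, VHL and VEGFA, then stood at 0.32 and 0.19. The deviations of libraries with the same replicate number correlated at -0.397 to 0.141, so the numbers were not taken as pairs, and the blocked counts do not describe a weaker effect. Under the block, ARNT in K562+L and ADM in K562/IM lost their calls. Depth limits CA9, which was at or near 0 counts in all groups. The EPAS1 to HIF1A ratio with merged exons was chosen after seeing the data.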
